A study of Mus musculus with 15 samples.

Results

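The Mef2 factors and the class IIa histone deacetylases (HDACs) were followed at the level of mRNA in cerebellar cells of the mouse. The genes were taken by name from the gene count tables: the transcription factors Mef2a, Mef2c and Mef2d and the deacetylases Hdac4, Hdac5, Hdac7 and Hdac9, 7 of 21889 genes. All 7 passed the filter on low counts and were among the 15259 genes tested. RNA-seq of poly(A) RNA was available from 15 libraries in 5 groups of 3. Of these, 12 came from granule neuron precursors (GNPs), the cells that give rise to the granule neurons of the cerebellum. They were taken at the embryonic age E15.5 and at postnatal days 1, 7 and 14 (P1, P7 and P14). The other 3 came from medulloblastoma cells (MB), a tumour of the cerebellum.

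The E15.5 cells carried the genotype label Math1-GFP, a reporter driven by regulatory sequence of Math1 (Atoh1), and the P1, P7 and P14 cells were labelled wild type. The genotype label and the age therefore cannot be told apart between E15.5 and the later ages. The MB cells were labelled Ptch1 heterozygous, with no age, and whole-gene counts do not check that label. All groups shared a Percoll purification from cerebellum and immediate lysis. The labels do not say that the libraries came from separate animals, so p-values measure the spread between these libraries, which may be technical.

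Mef2 proteins bind A/T-rich elements of DNA and activate genes of muscle, neurons and other tissues. Class IIa HDACs bind Mef2 and bring in corepressor complexes with Hdac3, so a Mef2 site bound by both is held silent. When calcium-dependent and other kinases phosphorylate the HDACs, 14-3-3 proteins bind them and they leave the nucleus, which frees Mef2. In granule neurons Mef2a and Mef2d are known for survival that depends on neuronal activity and for shaping synapses.

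The promoters of Mef2a and Hdac5 are shown because, of the 7 genes, these were the ones with a full Mef2 consensus element. RefSeq promoter windows of 300 bases (GRCm38.p6, 250 bases before the start site and 50 after) were found for all 7 genes, 13 windows in total. Each was searched on both strands for the Mef2 consensus and for its core TAAAAATA, read on the other strand as TATTTTTA, which the consensus may include. The consensus stood in 1047 of 32851 promoter windows of all genes (3.19%) and the core in 893 (2.72%). The Mef2a window lies at chr7:67372809-67373108 on the minus strand, and its match begins at -2 from the start site. The Hdac5 window lies at chr11:102230123-102230422 on the minus strand, with the match at -20. Capitals mark the consensus matches, both of which hold the core, 5′ to 3′ along each gene.
Mef2a: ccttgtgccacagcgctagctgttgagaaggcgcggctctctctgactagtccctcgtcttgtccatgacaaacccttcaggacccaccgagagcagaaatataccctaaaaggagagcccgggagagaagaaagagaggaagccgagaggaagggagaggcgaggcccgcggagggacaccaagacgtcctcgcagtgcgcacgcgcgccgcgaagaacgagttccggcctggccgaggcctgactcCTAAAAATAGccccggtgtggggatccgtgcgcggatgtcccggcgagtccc
Hdac5: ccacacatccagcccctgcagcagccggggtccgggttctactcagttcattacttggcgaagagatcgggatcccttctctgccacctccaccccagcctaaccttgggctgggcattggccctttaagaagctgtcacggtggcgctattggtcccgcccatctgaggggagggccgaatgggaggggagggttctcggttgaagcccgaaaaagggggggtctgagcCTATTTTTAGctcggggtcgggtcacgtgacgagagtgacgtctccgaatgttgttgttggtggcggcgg
A window of Hdac9, at chr12:34528840-34529139 on the minus strand, held the core alone, as TATTTTTA at -165. The windows of Mef2c, Mef2d, Hdac4 and Hdac7 held neither. A match is a description of the letters and does not show that Mef2 binds there.

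Library totals in genes ran from 12597472 to 43443132 counts, and the values below are CPM, counts scaled to the library size with TMM. Replicate 3 of P1 stood nearer to P14 than its companions on the first principal component of all genes. It also carried 3782 CPM of oligodendrocyte markers in sum, against 574 and 952 CPM in the other P1 libraries. Replicate 1 of MB carried 489 CPM of microglia and macrophage markers, against 219 and 187 CPM. The gene tables also fell into 2 sets of libraries that differed in counting. In 6 of them (E15.5 replicates 1 and 3, all of P7, and MB replicate 1) the gene Tsnax held at most 0.273% of its reads in the transcript tables. In the other 9 it held 92.4% to 94.8%. The 7 genes did not split this way: 6 of them held 95.3% to 99.9% of the largest transcript count in both sets, and Hdac9 held 104% to 128%. In fits within a set, MB has 1 library in the first set and E15.5 has 1 in the second, and that library is assumed to vary like the other groups. All of P7 was in the first set and all of P1 and P14 in the second. Age and counting set therefore cannot be told apart between P7 and P1 or P14. A term for the counting set draws on E15.5 and MB, the groups split between the sets.

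**Figure D1:**
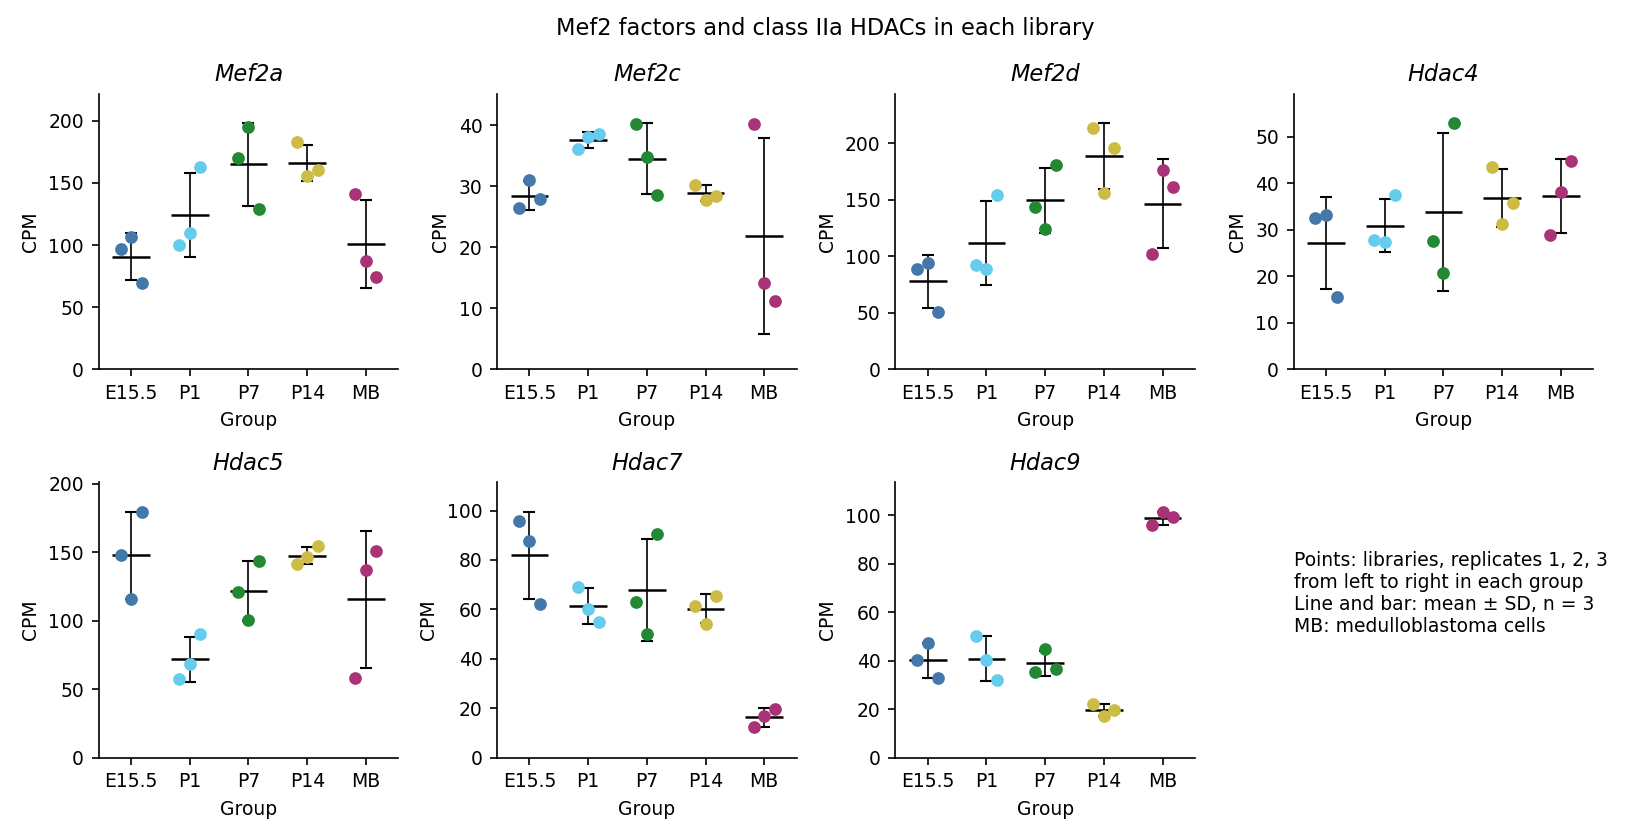
Expression of the 7 genes, in CPM on a linear axis from 0, in each of the 15 libraries; points are libraries and lines and bars are the mean ± SD of 3 libraries. The 3 MB libraries lie above all others for Hdac9 (95.7 to 101 CPM) and below all others for Hdac7 (12.3 to 19.7 CPM).

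Mef2a and Mef2d rose over development, while Mef2c showed no called change. The HDAC genes followed different courses: Hdac9 was lower at P14 than at each earlier age, Hdac5 was lowest at P1, and Hdac4 and Hdac7 had no call between ages. Calls were made where the edgeR quasi-likelihood test gave a Benjamini-Hochberg adjusted p (FDR, over all genes tested) under 0.05. In the test for any difference among the 4 ages, 4 of the 7 genes were called, and 55.7% of all genes tested were. The FDR was 0.0281 for Mef2a, 0.00741 for Mef2d, 0.0234 for Hdac5 and 0.00115 for Hdac9. It was 0.620 for Mef2c, 0.639 for Hdac4 and 0.299 for Hdac7. In these bulk samples, fewer cells of a type and less RNA per cell cannot be told apart.

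Mef2a (ENSMUSG00000030557, chr7:74376049-74517744, minus strand, mm9) encodes a Mef2 factor of granule neurons. At E15.5 it stood at 96.7, 106 and 69.3 CPM in replicates 1 to 3 (90.8 ± 19.2, SD, n = 3). At P1 it was 100.2, 109.6 and 162.5 CPM, at P7 170, 195 and 129 CPM, and at P14 183, 156 and 160.2 CPM (166 ± 14.5). Every P14 library lay above every E15.5 library, whereas the P1 and P7 libraries overlapped with those of P14. Mef2a rose by 0.87 on the log2 scale (SE 0.26, FDR 0.0109) from E15.5 to P14. The call rested on E15.5 replicate 3: without it the log2 change was 0.64 with an FDR of 0.0666, and within the 9 libraries of the second counting set, which also leave out E15.5 replicate 1, it was 0.63 with an FDR of 0.0899. The 4-age call was lost without any 1 of 5 libraries, at an FDR of 0.0620 without E15.5 replicate 1, 0.108 without E15.5 replicate 3, 0.0575 without P7 replicate 1, 0.0501 without P7 replicate 2 and 0.0562 without P14 replicate 1.

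Mef2d (ENSMUSG00000001419, chr3:87946294-87976008, plus strand, mm9), the other main Mef2 factor of granule neurons, was at 88.9, 93.9 and 51.2 CPM at E15.5 (78.0 ± 23.4). Its P1 libraries held 92.4, 88.9 and 154 CPM and its P7 libraries 144, 124 and 181 CPM. At P14 it reached 214, 157 and 196 CPM (189 ± 29.3), and all P14 libraries lay above all E15.5 and all P1 libraries. Mef2d rose by 1.28 on the log2 scale from E15.5 to P14 (SE 0.28, FDR 0.00166), and stayed called in every alternative fit and without each library, at log2 changes of 0.90 to 1.43. From P1 to P14 the log2 difference was 0.75 with an FDR of 0.0972, which is not a call. The P1 library with the high oligodendrocyte and granule lineage markers was also the highest P1 library for Mef2a, Mef2c, Mef2d, Hdac4 and Hdac5. Without it the difference in Mef2d between P1 and P14 was 1.06 with an FDR of 0.0220, and within the second counting set, with it, 0.74 with an FDR of 0.0366.

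Mef2c (ENSMUSG00000005583, chr13:83643033-83806684, plus strand, mm9), known for roles in cortical neurons and microglia, was the least abundant of the 3 factors per length of exon among the precursors. Its libraries held 26.4, 31.1 and 27.97 CPM at E15.5, 36.1, 38.0 and 38.6 CPM at P1, 40.2, 34.8 and 28.6 CPM at P7, and 30.3, 27.7 and 28.5 CPM at P14. The P1 libraries lay above those of E15.5 and P14 without overlap, but the differences were small. The log2 difference of P14 from P1 was -0.38 (FDR 0.505). It was called when the 6 libraries of those ages were fitted alone (-0.39, FDR 0.0326) and within the second counting set (-0.40, FDR 0.0424).

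Summed signals of other cell types also differed between E15.5 and P14, in both directions. Oligodendrocyte markers went from 69.2–103 to 5813–6262 CPM in sum, astroglia markers from 331–489 to 3815–5076 CPM, and endothelium markers from 13.4–35.2 to 784–813 CPM. GABAergic interneuron markers went from 671–768 to 281–369 CPM, with 7 of 8 called lower and 1 higher, and Purkinje cell markers from 280–494 to 242–438 CPM, with 2 of 8 called higher and 2 lower. All 8 of 8 endothelium, 8 of 8 pericyte and fibroblast, and 8 of 8 astroglia markers were called higher at P14. Of 10 granule lineage markers, 5 were called higher and 1 lower, and Gabra6, a marker of mature granule neurons, was at 0 in the E15.5 libraries. The part of these cells in the Mef2a and Mef2d changes was not tested.

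Hdac9 (ENSMUSG00000004698, chr12:34732451-35213754, minus strand, mm9) encodes a class IIa HDAC that is also made as a short form without the deacetylase domain. It showed no called change from E15.5 (40.3, 47.4 and 32.8 CPM) through P1 (50.3, 40.3 and 31.9 CPM) to P7 (35.4, 45.0 and 36.6 CPM), with the 3 groups overlapping. At P14 it was 22.1, 17.2 and 19.5 CPM (19.6 ± 2.42), below every library of the other ages. Against P7 its log2 level fell by 0.99 (SE 0.19, FDR 0.00982), the 1 call among the 7 genes where 10.3% of all genes were called. These 2 ages lie in different counting sets. With a term for the counting set the Hdac9 difference was -1.21 (FDR 0.0392), and the calls over all genes went from 1574 to 295. Hdac9 fell by 1.06 against P1 (SE 0.20, FDR 0.00727) and by 1.03 against E15.5 (SE 0.20, FDR 5.08e-04). The 3 comparisons of P14 with P7, P1 and E15.5 share the P14 libraries, so they are not independent of each other. The call against P7 was lost without P7 replicate 2 (-0.88, FDR 0.0583) and without P14 replicate 2 (-0.91, FDR 0.0645), and that against P1 without P1 replicate 1 (-0.88, FDR 0.0541) and without P14 replicate 2 (-0.97, FDR 0.0593). Proliferation markers, 3 of the 4 listed being measured, summed to 2286–3357 CPM at P7 and 945–1209 CPM at P14. At E15.5 they summed to 859–1432 CPM. Other marker lists also differed between P7 and P14. P14 libraries held 5813–6262 CPM of oligodendrocyte markers in sum and P7 libraries 913–1814 CPM, with 2 of 8 called higher and 1 lower. Endothelium markers summed to 784–813 and 307–368 CPM in these libraries, with 3 of 8 called higher. Of the GABAergic interneuron markers, 3 of 8 were called lower. The part of any of these lists in the Hdac9 values was not tested.

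Hdac5 (ENSMUSG00000008855, chr11:102057058-102091480, minus strand, mm9), a class IIa HDAC of brain and muscle that shuttles out of the nucleus on calcium signals, had its low point at P1. It was at 148, 116 and 179.5 CPM at E15.5 (148 ± 31.7) and at 57.6, 68.3 and 90.1 CPM at P1 (72.0 ± 16.6). It then came to 121, 100.3 and 144 CPM at P7 and at 142, 146 and 154 CPM at P14. No P1 library reached the lowest library of any other age. From E15.5 to P1 the log2 level of Hdac5 fell by 1.04 (SE 0.29, FDR 0.00876), the 1 call among the 7 genes, in a comparison with 46.3% of all genes called. This call held in every alternative fit and without each library, at -1.35 to -0.69. The log2 difference of P7 from P1 was 0.76 with an FDR of 0.161 (unadjusted p 0.0192). None of the 7 genes was called by edgeR in that comparison, in which 3.15% of all genes were, nor by DESeq2 or in any other fit of it, and Hdac5 was the 1 gene of the 7 with an unadjusted p under 0.05.

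From P1 to P14 Hdac5 rose by 1.03 on the log2 scale (SE 0.29, FDR 0.0401), and with Hdac9 it made 2 of 7 genes called, where 8.94% of all genes were. The Hdac5 call was lost without P1 replicate 1 (0.90, FDR 0.203), P1 replicate 2 (1.00, FDR 0.170), P14 replicate 1 (1.06, FDR 0.0934), P14 replicate 2 (1.04, FDR 0.115) and P14 replicate 3 (1.00, FDR 0.121), and was kept without P1 replicate 3 (1.23, FDR 0.0193). The 4-age call of Hdac5 was lost without P1 replicate 1 (FDR 0.109) or P1 replicate 2 (FDR 0.0890). The log2 difference of P14 from E15.5 was -0.01 (FDR 0.987), at 147.5 ± 6.38 CPM against 148 ± 31.7 CPM. GABAergic interneuron markers, of which 6 of 8 were called lower at P1 than at E15.5, summed to 671–768 CPM at E15.5, 383–454 CPM at P1 and 281–369 CPM at P14. Other lists went the other way from E15.5 to P1. All 8 of 8 astroglia, oligodendrocyte, endothelium, and pericyte and fibroblast markers were called higher, and 7 of 8 microglia and macrophage markers. Astroglia markers summed to 331–489 CPM at E15.5, 2836–4362 CPM at P1 and 3815–5076 CPM at P14. The part of these cells in the Hdac5 values was not tested.

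Hdac4 (ENSMUSG00000026313, coding model at chr1:93829334-94044970, minus strand, mm9), a class IIa HDAC known to protect neurons, was at 32.5, 33.1 and 15.7 CPM at E15.5, 27.8, 27.4 and 37.4 CPM at P1, 27.6, 20.7 and 52.9 CPM at P7, and 43.5, 31.2 and 35.7 CPM at P14. The groups overlapped throughout and the libraries of P7 alone spanned 20.7 to 52.9 CPM. No comparison between ages was called, with log2 differences between neighbouring ages of 0.19, 0.13 and 0.13.

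Hdac7 (ENSMUSG00000022475, chr15:97623097-97674933, minus strand, mm9), best known from endothelium and developing lymphocytes, stood at 95.9, 87.8 and 62.1 CPM at E15.5 (81.9 ± 17.7). It was at 69.2, 60.1 and 54.8 CPM at P1, 63.1, 50.1 and 90.3 CPM at P7, and 61.5, 53.9 and 65.5 CPM at P14. The log2 difference of P14 from E15.5 was -0.44 (FDR 0.129), and that of P1 from E15.5 was -0.42 (FDR 0.160). Within the second counting set, with 1 library at E15.5, Hdac7 was called lower at P14 (-0.56, FDR 0.0243) and at P1 (-0.52, FDR 0.0376). Without E15.5 replicate 3 it was called lower at P14 (-0.68, FDR 0.0340).

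Across the whole span from E15.5 to P14, 3 of the 7 genes were called, Mef2a and Mef2d higher and Hdac9 lower, in a comparison with 50.9% of all genes called. The median log2 difference was 0.02 over the 7 genes and -0.03 over all genes tested. From P1 to P14 it was 0.25 over the 7 genes against 0.01 over all genes.

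**Figure D2:**
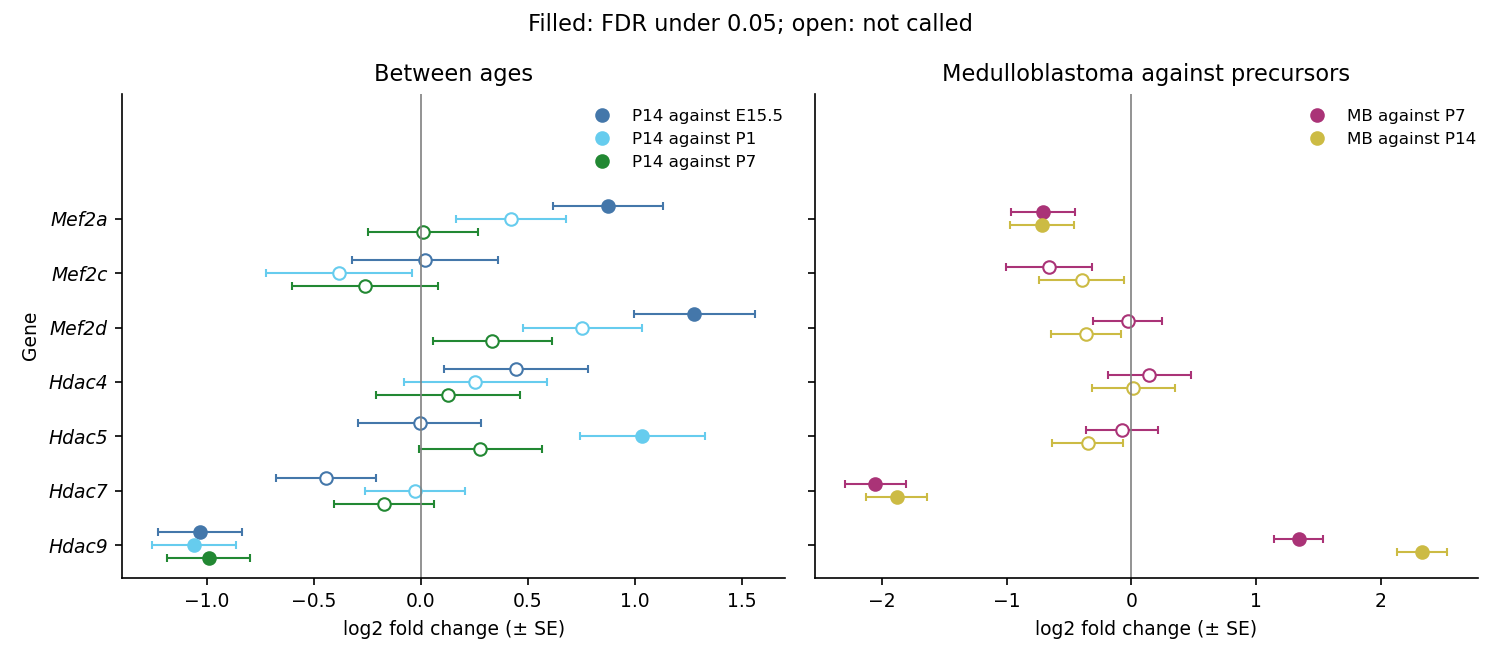
Log2 fold changes of the 7 genes with their standard errors, for P14 against each earlier age (left) and MB against P7 and P14 (right); filled points have an FDR under 0.05. Hdac9 lies at -1.06 to -0.99 in the comparisons of P14 and at 1.34 and 2.33 in those of MB, and Hdac7 lies at -2.05 and -1.88 in MB.

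In medulloblastoma cells Hdac9 was higher and Hdac7 and Mef2a were lower than in P7 and P14 precursors, the same 3 of the 7 genes being called against each. The Hdac9 and Hdac7 calls were kept in every alternative fit run, and those of Mef2a were not. MB was not tested against E15.5 or P1. The comparison with P7 sets the tumour cells beside precursors at an age of active division. Over all genes, 34.5% were called against P7 and 50% against P14. Both comparisons use the same MB libraries. The median log2 difference of the 7 genes was -0.07 against P7 and -0.36 against P14, and that of all genes was 0.02 and 0.01.

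Hdac9 stood at 95.7, 101 and 99.1 CPM in the MB libraries (98.7 ± 2.77), about the same in each and above all 12 precursor libraries, of which the highest held 50.3 CPM. It was 2.53-fold higher than at P7 (39.0 ± 5.21 CPM), a log2 change of 1.34 (SE 0.20, FDR 8.18e-05). Against P14 it was 5.03-fold higher, a log2 change of 2.33 (SE 0.20, FDR 4.25e-07). Both calls were kept without each of the libraries compared. Within the second counting set, MB replicates 2 and 3 differed from P14 by 2.38 (FDR 1.82e-05). Within the first set the lone MB library differed from P7 by 1.34 (FDR 0.00758). Microglia and macrophage markers were also higher in MB than at P7, 6 of 8 being called, with sums of 489, 219 and 187 CPM in MB replicates 1 to 3 and 49.6–150.3 CPM at P7. Proliferation markers summed to 3566–4434 CPM in MB, above P7 (2286–3357 CPM), with 1 of the 3 measured called higher. In the mean, Ccnd1 went from 237 CPM at P7 to 942 CPM in MB, Mki67 from 1724 to 2143 CPM and Top2a from 854 to 1022 CPM. The part of either list in the Hdac9 level was not tested.

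The transcript tables describe which end of Hdac9 the reads covered. A 5′ model of 12 exons (chr12:35056368-35213754, 4.42 kb of exon) and a 3′ model of 16 exons (chr12:34732451-35058985, 5.41 kb) share 243 exon bases. In MB the 5′ model held 2321, 3699 and 2133 raw counts and the 3′ model 357, 1037 and 666. Per kb, the 3′ model held 12.6%, 22.9% and 25.5% of the 5′ model in MB, 26.6%, 20.5% and 25.7% at P7, and 34.7%, 34.1% and 27.7% at E15.5. The 5′ model was thus covered more deeply per kb than the 3′ model in every library, and the MB libraries overlapped with those of P7 apart from replicate 1. On the transcript tables, the log2 change of Hdac9 in MB against P7 was 1.40 (FDR 6.69e-05).

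Hdac7 stood at 12.3, 17.1 and 19.7 CPM in MB (16.4 ± 3.71), below every precursor library, of which the lowest held 50.1 CPM. Against P7 it fell by 2.05 on the log2 scale, 4.15-fold lower (SE 0.24, FDR 1.23e-05). Against P14 it fell by 1.88, 3.69-fold lower (SE 0.24, FDR 1.67e-05). Both calls were kept without each of the libraries compared. Within the second counting set, MB replicates 2 and 3 differed from P14 by -1.69 (FDR 3.19e-05), and within the first set the lone MB library differed from P7 by -2.41 (FDR 0.00382). All 8 endothelium markers were called lower in MB than at P7, with sums of 21.6–37.1 against 307–368 CPM, and none was at 0. At E15.5 those markers summed to 13.4–35.2 CPM, with Hdac7 at 62.1–95.9 CPM. Other lists differed too between MB and P7. Called lower in MB were 8 of 8 pericyte and fibroblast, 7 of 8 Purkinje cell and 6 of 8 GABAergic interneuron markers. The GABAergic interneuron markers summed to 122–200 CPM in MB, 333–522 CPM at P7 and 671–768 CPM at E15.5. Astroglia and oligodendrocyte markers each had 5 of 8 lower and 2 higher, and 6 of 8 microglia and macrophage markers were higher. The part of any of these cells in the Hdac7 difference between MB and P7 was not tested.

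**Figure D3:**
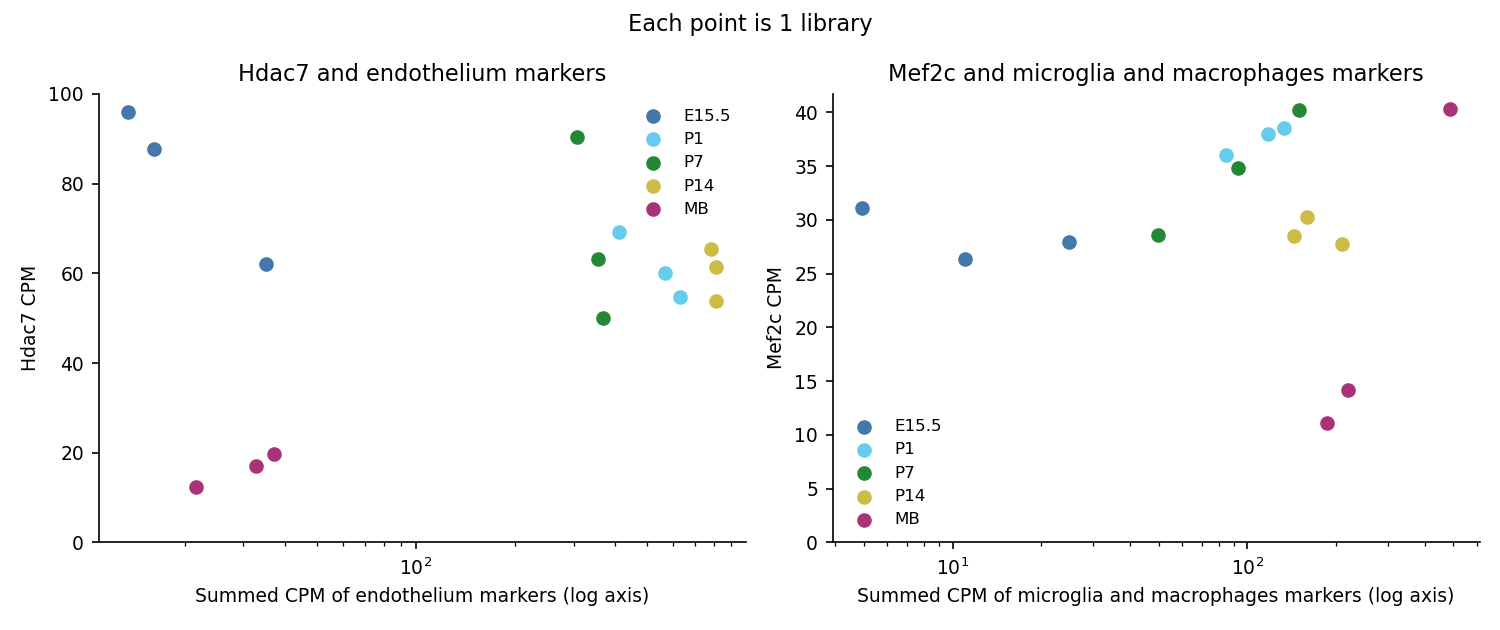
Hdac7 against the summed CPM of 8 endothelium markers (left) and Mef2c against that of 8 microglia and macrophage markers (right), with CPM on a linear axis from 0, marker sums on a log axis, and 1 point for each library. The MB libraries lie at 12.3 to 19.7 CPM of Hdac7 and those of E15.5 at 62.1 to 95.9 CPM, with endothelium marker sums of 21.6 to 37.1 and 13.4 to 35.2 CPM, and MB replicate 1 holds 40.3 CPM of Mef2c and the highest microglia marker sum.

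Mef2a stood at 141, 87.6 and 74.3 CPM in MB (101 ± 35.4), with replicates 2 and 3 below all P7 and P14 libraries and replicate 1 within the P7 range. It fell by 0.71 on the log2 scale against P7 (SE 0.26, FDR 0.0441) and by 0.72 against P14 (SE 0.26, FDR 0.0298). The call against P7 was lost without P7 replicate 1 (-0.65, FDR 0.111), P7 replicate 2 (-0.57, FDR 0.145), MB replicate 2 (-0.62, FDR 0.136) or MB replicate 3 (-0.53, FDR 0.163). It was lost with a term for the counting set (-0.58, FDR 0.155), with the 6 libraries fitted alone (-0.68, FDR 0.114) and with a replicate block (-0.72, FDR 0.0509), and within the first set MB replicate 1 differed from P7 by -0.18 (FDR 0.742). The call against P14 was lost without P14 replicate 1 (-0.65, FDR 0.0895), P14 replicate 3 (-0.75, FDR 0.0554), MB replicate 2 (-0.63, FDR 0.0986) or MB replicate 3 (-0.54, FDR 0.121), and with the 6 libraries fitted alone (-0.71, FDR 0.0572). Within the second set it was -1.01 (FDR 0.00319).

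Mef2c split the MB libraries: replicate 1 held 40.3 CPM, and replicates 2 and 3 held 14.2 and 11.1 CPM, less than in any precursor library. The log2 differences over all 3 libraries were -0.66 against P7 (FDR 0.154) and -0.40 against P14 (FDR 0.350), neither of them called. Without replicate 1 Mef2c was called lower in MB, at -1.45 against P7 (FDR 3.35e-05) and -1.18 against P14 (FDR 1.14e-04). Within the second counting set it was -1.15 against P14 (FDR 2.11e-04), and within the first set MB replicate 1 differed from P7 by 0.27 (FDR 0.562). Replicate 1 was also the library with 489 CPM of microglia and macrophage markers, cells in which Mef2c is known to be expressed. Replicates 2 and 3 held 219 and 187 CPM of these markers. The E15.5 libraries held 4.93–24.9 CPM of them, with Mef2c at 26.4–31.1 CPM. Replicate 1 was also the lone MB library in the first counting set. The part of these cells in the Mef2c value was not tested.

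Mef2d, Hdac4 and Hdac5 were not called in MB. Mef2d held 102, 177 and 161 CPM, a log2 difference of -0.03 from P7 (FDR 0.951). Hdac4 held 29.0, 38.0 and 44.7 CPM (log2 difference 0.14, FDR 0.783). Hdac5 held 58.5, 137 and 151 CPM (log2 difference -0.07, FDR 0.872). In all 3 of these genes MB replicate 1 was the lowest MB library, the reverse of Mef2a and Mef2c, for which it was the highest. All 3 MB libraries lay within the range of the precursor libraries for all 3 genes. For Mef2d and Hdac5, replicate 1 lay below every P7 and P14 library. Within the first counting set it differed from P7 by -0.50 for Mef2d and -1.01 for Hdac5.

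Levels can be set side by side between genes only per length, as CPM per kb of the longest transcript. For Hdac9 the longest transcript was the 3′ model of 5.41 kb, which shares 243 exon bases with the 5′ model. Most Hdac9 reads lay outside that 3′ model, so its levels per kb and its place in the order depend on this length. At E15.5 Hdac5 was highest at 34.7 ± 7.43 CPM per kb. Hdac7 (19.4 ± 4.18), Mef2a (16.4 ± 3.47) and Mef2d (14.4 ± 4.33) followed and did not differ beyond their SDs, nor did Hdac9 (7.42 ± 1.35), Hdac4 (6.88 ± 2.52) and Mef2c (4.41 ± 0.369), each from the next. By P1 Mef2a (22.4 ± 6.07 CPM per kb) and Mef2d (20.7 ± 6.81) came first, with Hdac5 (16.9 ± 3.88) and Hdac7 (14.5 ± 1.72) next, all overlapping with their neighbours in the order. Hdac4 (7.84 ± 1.44), Hdac9 (7.56 ± 1.70) and Mef2c (5.82 ± 0.205) were again the low group.

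At P7 the order was Mef2a (29.8 ± 6.02 CPM per kb), Hdac5 (28.5 ± 5.07), Mef2d (27.7 ± 5.32), Hdac7 (16.1 ± 4.85), Hdac4 (8.57 ± 4.31), Hdac9 (7.21 ± 0.963) and Mef2c (5.36 ± 0.902). The first 3 overlapped within 1 SD. At P14 Mef2d (35.0 ± 5.42 CPM per kb), Hdac5 (34.5 ± 1.49) and Mef2a (30.0 ± 2.61) led, and Hdac9 (3.63 ± 0.448) stood below Mef2c (4.47 ± 0.203). In MB Mef2d (27.1 ± 7.27 CPM per kb), Hdac5 (27.1 ± 11.7), Hdac9 (18.2 ± 0.512) and Mef2a (18.2 ± 6.39) overlapped each with the next, and Hdac7 (3.87 ± 0.878) and Mef2c (3.39 ± 2.48) were lowest. With the union of exons as the length, an alternative chosen after seeing the data (9.61 kb for Hdac9), its mean level was 4.18, 4.25, 4.06 and 2.04 CPM per kb from E15.5 to P14 and 10.3 CPM per kb in MB. On that length Hdac9 was below Mef2c at every age (4.41, 5.82, 5.36 and 4.47 CPM per kb).

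**Figure D4:**
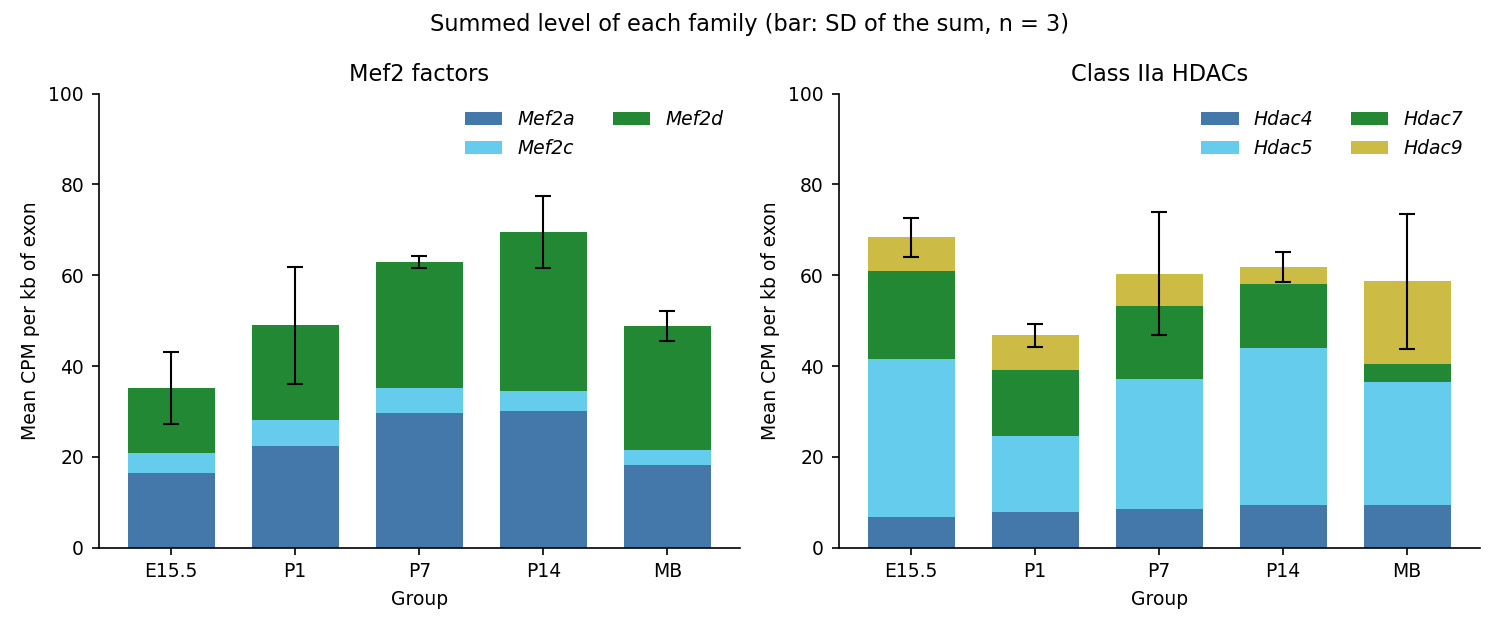
Mean CPM per kb of exon of the longest transcript, on a linear axis from 0, summed over the 3 Mef2 factors (left) and the 4 class IIa HDACs (right) in each group, with 1 colour for each gene; bars are the SD of the sum over 3 libraries. For Hdac9 the longest transcript is the 3′ model, outside which most of its reads lay. The Mef2 sum goes from 35.2 at E15.5 to 69.4 at P14 and 48.8 in MB, and in the HDAC sum of MB the share of Hdac7 is 6.64% and that of Hdac9 is 32.6%.

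The Mef2 sum per kb went from 35.2 ± 7.91 (E15.5) over 48.9 ± 12.96 (P1) and 62.9 ± 1.36 (P7) to 69.4 ± 7.93 (P14), and MB had 48.8 ± 3.31. Mef2d made up 40.4% of it at E15.5 and 50.2% at P14, and Mef2c 12.96% and 6.47%. The class IIa sum went from 68.3 ± 4.23 (E15.5) over 46.8 ± 2.47 (P1) and 60.3 ± 13.5 (P7) to 61.8 ± 3.24 (P14). With 58.6 ± 14.9, MB lay within the range of the ages. Its makeup differed. Hdac7 took 26.3% ± 2.09 of the class IIa sum at P7 and 6.64% ± 0.380 in MB, and Hdac9 took 12.5% ± 4.08 at P7, 5.86% ± 0.550 at P14 and 32.6% ± 8.67 in MB. These shares are descriptions and were not tested. Both the sums and the shares use the longest transcript as the length, for Hdac9 the 3′ model, and depend on that choice. With the union of exons, Hdac9 in MB was at 10.3 CPM per kb, where the longest transcript gave 18.2.

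The genes that act on the pair were read from 7 lists with 55 genes in all, every one of them tested. From P1 to P14 none of the 55 was called higher by edgeR (3.63% of all genes were) and 2 were called lower (5.31% of all genes were). At an unadjusted p under 0.05, 15 were higher and 4 lower, and DESeq2 called 6 higher and 3 lower. Both encode kinases of class IIa HDACs: Camk1g (log2 change -1.62, FDR 0.0387) and Prkd3 (-0.79, FDR 0.0370). Camk1g held 3.09, 3.61 and 1.58 CPM at P1 and 0.742, 0.904 and 1.04 CPM at P14, and its call was kept without P1 replicate 3 and lost without any other of these 6 libraries (-1.74 to -1.38, FDR 0.105 to 0.180) and with a replicate block (-1.59, FDR 0.0504). The Prkd3 call was likewise kept without P1 replicate 3 alone (-0.82 to -0.72, FDR 0.0960 to 0.173, without each of the others). In MB against P7, 6 of the 55 were called higher and 13 lower, 10.9% and 23.6% of them, where 13.7% and 20.7% of all genes were.

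Among the 14 kinases that send class IIa HDACs out of the nucleus, 5 were called lower and 1 higher in MB than at P7. Over all genes tested, 20.7% were called lower and 13.7% higher. The list median was -0.35 on the log2 scale, beside 0.02 for all genes. Camk2a, a calcium/calmodulin-dependent kinase of mature neurons, held 15.9, 4.39 and 9.21 CPM at P7 and 0.238, 0.195 and 0.0801 CPM in MB (log2 change -5.78, SE 0.56, FDR 1.79e-06). Camk4 (-2.06), Camk2d (-1.78), Camk1g (-1.57) and the salt-inducible kinase Sik1 (-2.36) were also called lower, of which Camk1g was lost without P7 replicate 1, MB replicate 1 or MB replicate 3 (-1.37 to -1.20, FDR 0.0527 to 0.0726) and with the 6 libraries fitted alone (-1.56, FDR 0.104). Prkd1, protein kinase D1, went the other way, from 12.1, 11.4 and 11.98 CPM to 31.9, 36.2 and 30.5 CPM, without overlap (1.48, SE 0.20, FDR 3.81e-05). Purkinje cell markers, 7 of 8 called lower, fell from 314–940 to 31.5–49.1 CPM in sum in the same comparison, and their part in the kinase changes was not tested.

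The 14-3-3 proteins, which hold the phosphorylated HDACs in the cytoplasm, had 1 of 6 genes called lower in MB, Ywhah (-0.74, FDR 0.00395), and a list median of -0.24. For this list and the next ones, the shares over all genes were 20.7% called lower and 13.7% higher. Of 7 genes of calcineurin, the calcium-activated phosphatase, and its inhibitors, 2 were lower. The inhibitor Rcan2 held 31.4, 42.6 and 37.0 CPM at P7 and 7.42, 2.96 and 2.60 CPM in MB (-3.10, FDR 4.48e-06), and the catalytic subunit Ppp3ca was called at -0.85 (FDR 0.0288). The Ppp3ca call was lost without any 1 of the 6 libraries but MB replicate 1 (-0.86 to -0.67, FDR 0.0516 to 0.119). It was also lost with the 6 libraries fitted alone (-0.82, FDR 0.0675), with a term for the counting set (-0.57, FDR 0.169) and within the first set (-0.25). Of 6 kinases of Mef2 or their activators, 2 were higher, the p38 kinase Mapk11 (0.98, FDR 0.00613) and Map2k5 (0.70, FDR 0.00968), which activates the kinase made from Mapk7. Map2k5 was lost with a term for the counting set (0.65, FDR 0.0591) and within the first set (0.33, FDR 0.428).

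Hdac3, the deacetylase that class IIa HDACs recruit with their corepressors, differed by 0.24 in MB from P7 (FDR 0.409). The Mapk11 call was lost with a term for the counting set (0.85, FDR 0.0541) and within the first set (0.56, FDR 0.205), and Ywhah within the first set (-0.64, FDR 0.219).

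Of 12 genes described as Mef2 targets in neurons, 4 were called lower in MB than at P7 and 1 higher. Over all genes tested, 20.7% were called lower and 13.7% higher. The list median was -0.73, beside 0.02 for all genes. Of the markers, 7 of 8 for Purkinje cells and 6 of 8 for GABAergic interneurons were also called lower. Of 10 granule lineage markers, 5 were called lower and 2 higher, and 6 of 8 microglia and macrophage markers were called higher. The part of these cells in the target genes was not tested. Lgi1, a secreted synaptic protein, held 4.33, 7.56 and 5.86 CPM at P7 and 1.07, 1.17 and 0.961 CPM in MB (-2.46, SE 0.49, FDR 0.00106). The protocadherins Pcdh10 (-1.67) and Pcdh17 (-2.38) and the synaptic scaffold gene Homer1 (-0.69) were the others called lower. Homer1 was lost without P7 replicate 1, P7 replicate 2, MB replicate 2 or MB replicate 3 (-0.63 to -0.57, FDR 0.0619 to 0.0882). It was also lost with the 6 libraries fitted alone (-0.66, FDR 0.0894), with a term for the counting set (-0.59, FDR 0.0865) and within the first set (-0.22). Bdnf, a neurotrophin, was called higher on low counts, at 0.701, 0.524 and 1.00 CPM against 0.793, 4.37 and 1.36 CPM (1.58, FDR 0.0264). That call rested on MB replicate 2, without which it was 0.55 (FDR 0.361), and was also lost without P7 replicate 1 (1.60, FDR 0.0692) or P7 replicate 2 (1.38, FDR 0.0964), with the 6 libraries fitted alone (1.61, FDR 0.119), with a term for the counting set (0.69, FDR 0.425) and within the first set (0.15, FDR 0.890). From P1 to P14 edgeR called none of the 12 and DESeq2 called 1, Lgi1, and 3 were higher at an unadjusted p under 0.05, with a list median of 0.38.

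**Figure D5:**
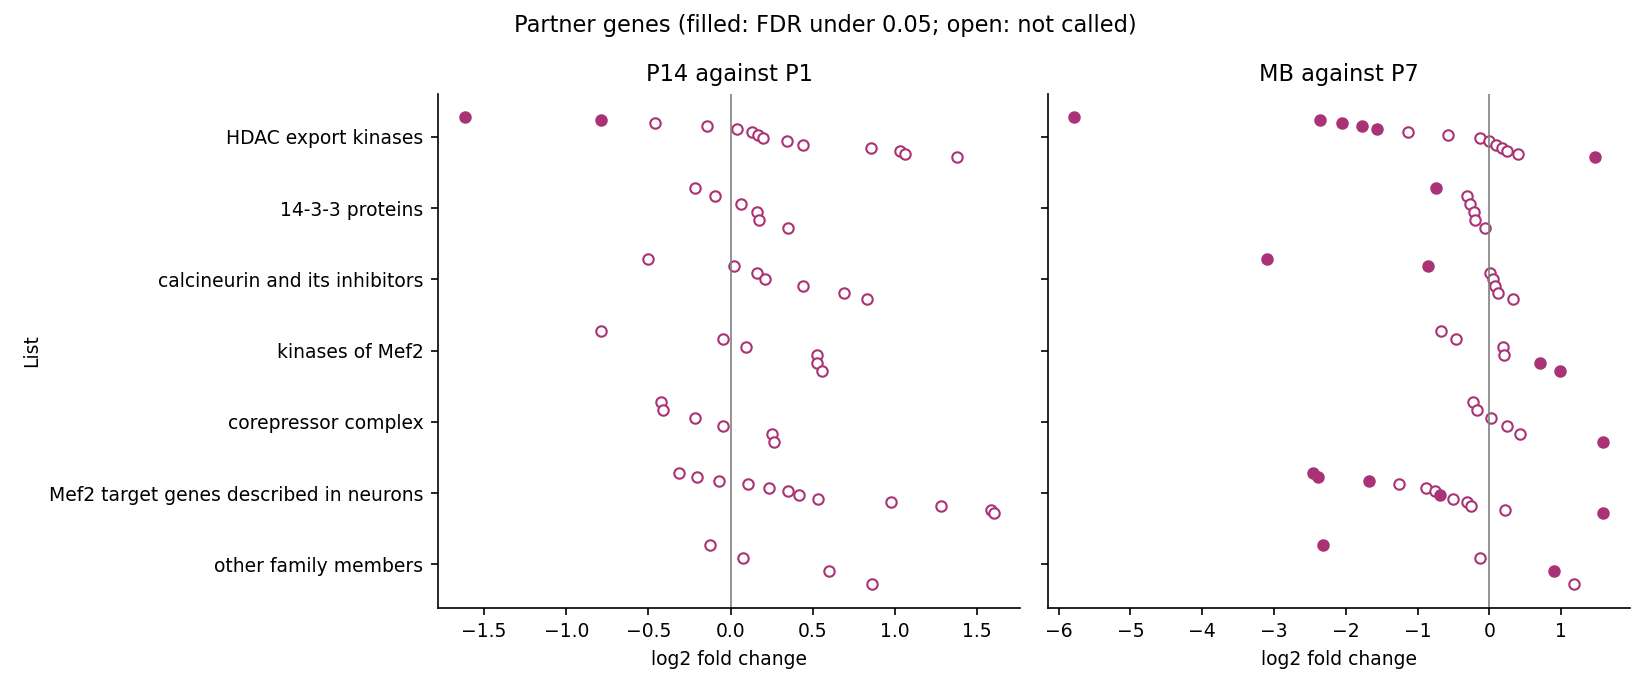
Log2 fold changes of the 55 genes of the 7 lists in P14 against P1 (left) and MB against P7 (right), with 1 point for each gene, set apart vertically within a list for legibility; filled points have an FDR under 0.05. On the left 2 points are filled, both below 0, and on the right 13 filled points lie below 0 and 6 above.

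The genes whose log2 CPM ran most like each member over the 15 libraries were found among 11569 genes with a symbol and a mean of at least 5 CPM. Pearson's r is given as a description, since all pairs share the same 15 libraries in 5 groups. For Mef2a they were Mindy2 (0.96) and Zbtb18 (0.95), for Mef2c Hspa4l (0.97) and Ppp4r4 (0.96), and for Mef2d the creatine transporter gene Slc6a8 (0.95). For Hdac4 they were the chromatin regulators Crebbp (0.95) and Kmt2d (0.94), and for Hdac5 C2cd2l (0.96) and Epn1 (0.94). Hdac7 was most like Lrrc3 (0.98) and Adgra1 (0.98), the latter at 20.7 CPM at P7 and 2.78 CPM in MB. Hdac9 was most like D10Wsu102e (0.98) and Gsg1l (0.97), and mean Gsg1l was 119 CPM in the P7 libraries, 42.1 CPM in those of P14 and 567 CPM in MB. Among the 7 genes themselves the highest r was 0.77 between Mef2d and Hdac4 and the lowest was -0.71 between Hdac7 and Hdac9.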

How the data were processed

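The authors deposited raw read counts for each of the 15 libraries per gene, per transcription start site model and per transcript. Per the submitters' processing notes, Trimmomatic, TopHat, StringTie and HTSeq were used with build mm9; versions, settings and strand are not given in the sources used here. The 7 genes, the partner and marker lists and the tests were chosen with earlier results of these data known, and no list test was run.

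Symbols were matched by Ensembl ID (20358 of 21889 genes). Counts in the gene tables were tested with edgeR 4.0.16 in R 4.3.3: filterByExpr (minimum count 10, minimum total 15), TMM scaling, 1 mean per group over all 15 libraries (10 residual degrees of freedom), quasi-likelihood F-tests and Benjamini-Hochberg adjustment over 15259 genes. Lines that name no gene were left out: reads in no gene were 14.1% to 29.2% of a library's records, reads with several alignments 22.9% to 44.6%, and reads over more than 1 gene 0.520% to 0.749%. CPM are counts scaled to the TMM-adjusted library size. Transcripts, with positions in mm9, were matched to genes by ID (25114) or by 3 consecutive exon lengths (1453) of the GENCODE annotation. The named partner genes were, in each list and in each of P14 against P1 and MB against P7, the called gene with the largest rise and that with the largest fall at a mean of at least 1 CPM. Other called genes of the lists, Prkd3, Hdac3, Adgra1 and Gsg1l were given values after these were seen. Of the genes these rules and the rule for likeness name, 2 are not reported here. Code was tested on simulated data. Alternatives were DESeq2 1.42.0, no filter, the other 2 tables, only the groups compared, a replicate block, a term for the counting set, fits within a set, and leaving out each library.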

Additional observations from a re-analysis of the deposited data

How the results depend on the processing

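Of the 17 calls made on the 7 genes, 9 were kept under every alternative fit run and 8 were lost under at least 1, and no call reversed. Of the 11 values of named partner genes, 6 lost their call at least once. The start-site tables hold 4 of the 7 genes, for Hdac4 as a separate 3′ model of 1 exon, and there 0 were called in P1 against E15.5, P14 against P7 and P14 against P1, and 2 in the 4-age test. The genes called in the first 3 of these comparisons, Hdac5 and Hdac9, are not in those tables, so their calls could not be repeated there. The 4 genes tested there were not called in these 3 comparisons on the gene tables either. Within the second counting set 2 were called in P1 against E15.5 and 4 in P14 against P1. No within-set fit was possible for P7 against P1, P14 against P7 and the 4-age test. Leaving out 1 library gave 1 to 1 genes of the 7 in P1 against E15.5, 0 to 0 in P7 against P1, 0 to 1 in P14 against P7, 0 to 3 in P14 against P1, 3 to 3 in P14 against E15.5, 2 to 4 in each MB comparison and 3 to 4 in the 4-age test.

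Same-numbered libraries did not deviate together (correlations of -0.312 to 0.332), so the numbers were not taken as pairs. With the replicate block the members called were 1 in P1 against E15.5, 0 in P7 against P1, 1 in P14 against P7, 2 in P14 against P1, 3 in P14 against E15.5, 2 in MB against P7, 3 in MB against P14 and 4 in the 4-age test.

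Over all genes, P7 against P1 gave 480 calls, with 248 under the block, 197 with the set term, 203 with those groups alone, 1209 by DESeq2 and 9 to 888 without 1 library. P14 against P7 gave 1574, with 295, 3838 and 2436 under the last 3 fits and 125 to 1077 without 1 library. P14 against P1 gave 1364, with 4089 alone, 4714 within the second set, 2394 by DESeq2 and 154 to 2714 without 1 library. Mef2b was limited by depth, with 3 to 31 counts a library.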

Other observations

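Of the 4 relatives outside the 7 genes, Hdac6 and Hdac11 were called in the 4-age test (FDR 7.27e-06 and 7.33e-05), and Hdac10 (FDR 0.309) and Mef2b (FDR 0.158) were not. Hdac6, a cytoplasmic deacetylase of tubulin, held 176, 155 and 179 CPM at E15.5 (169.6 ± 13.2) and 80.0, 80.0 and 72.3 CPM at P1 (77.5 ± 4.43), a fall of 1.13 on the log2 scale (SE 0.14, FDR 1.50e-05, edgeR quasi-likelihood test). Its later groups stayed between 71.1 and 85.5 CPM in the mean, MB included at 78.4 CPM. Hdac11, the class IV deacetylase, held 75.2, 69.0 and 93.8 CPM at E15.5 and 14.6, 20.4 and 26.5 CPM at P1 (-1.95, FDR 2.04e-04). It was at 20.3, 13.7 and 11.7 CPM at P7 and at 32.1, 40.6 and 39.0 CPM at P14 (1.29, FDR 0.0225), a call that was kept without P7 replicate 1 but lost without any other of these 6 libraries (1.13 to 1.38, FDR 0.0522 to 0.103) and with a term for the counting set (0.89, FDR 0.321). The MB libraries held 1.55, 4.35 and 3.16 CPM, below all precursor libraries (-2.32 against P7, FDR 7.33e-05).

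Hdac10, a polyamine deacetylase, went from 19.7, 16.7 and 16.8 CPM at P7 to 27.5, 33.7 and 38.0 CPM in MB without overlap (0.90, FDR 0.00275), and within the first counting set the difference was 0.68 (FDR 0.128). Mef2b stayed under 1 CPM in every library, with the highest at 0.757 CPM in MB replicate 2, and the log2 difference of MB from P7 was 1.18 (FDR 0.116).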
